A study of Homo sapiens with 60 samples.

Results

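The genes described here report on fatty acid use in a lung carcinoma line exposed to herbal extracts: ANGPTL4, PLIN2, PDK4 and CPT1A, which are known targets of the peroxisome proliferator-activated receptors (PPARs), and ACADVL, ACADM, ACAA2 and HADHA, which encode enzymes of mitochondrial fatty acid oxidation. They were taken by symbol from a list of 8 names and are 8 of the 60675 genes in the deposited table. All 8 passed the filter on low counts and are among the 18396 genes tested. The cells were A549, a human non-small cell lung carcinoma line, and every library was made after 24 h of exposure. Ethanol extracts were given at a low, a medium and a high dose, 7 of them in replicate. The Polygalae Radix doses were 15.2, 76 and 380 µg/mL and the Aucklandiae Radix doses 14.8, 74 and 370 µg/mL, with 2 libraries per dose each. All other extracts had doses of 20, 100 and 500 µg/mL. Soyo-san had 2 libraries per dose, and Guibi-tang, Saengmaek-san, Menthae Herba and Saposhnikoviae Radix had 3. The eighth extract, Okbyeongpung-san, had 1 library per dose. The names ending in Radix or Herba are single herbs and the other 4 are multi-herb formulas. The control was 3 vehicle libraries of cells given DMSO, at 0.1% in the sample labels and at 2% in the series text. According to the series text, an extract that slowed the cells below 500 µg/mL was given at a mildly inhibitory concentration as its high dose, and samples with too little RNA were left out.

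PPARs are nuclear receptors that bind DNA as heterodimers with RXR and are switched on by fatty acids and their derivatives. Their targets prepare a cell to store and burn fat. ANGPTL4 is a secreted inhibitor of lipoprotein lipase, PLIN2 coats lipid droplets, PDK4 is a kinase that shuts off pyruvate dehydrogenase and so spares glucose, and CPT1A couples long-chain fatty acids to carnitine for entry into mitochondria, the controlled step of their oxidation. Inside the mitochondrion, ACADVL and ACADM make the first oxidation step on very long and on medium chains, the trifunctional protein built from HADHA and HADHB carries out the hydration, second oxidation and cleavage of long chains, and ACAA2 is the thiolase that cleaves shorter ones. ANGPTL4 and PDK4 are also known to be induced by glucocorticoids, and ANGPTL4 and PLIN2 by hypoxia.

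Library totals ran between 17113963 and 33363661 counts. Every sample title, vehicle included, names batch D. The library names in the labels begin with a prefix, here called the library set, and the labels do not say what it stands for. The 3 vehicle libraries had a prefix of their own, so each comparison with vehicle also compares library sets. A further split of the libraries, which no label names, was marked by the level of ENSG00000282955: in 38 libraries (class 1) it was at most 3.5 CPM (counts scaled to the size of the library), and in 22 libraries (class 2) it was at least 17.65 CPM. Vehicle, Soyo-san and Okbyeongpung-san libraries were all class 2, Aucklandiae Radix and Menthae Herba libraries were all class 1, and 9 groups held both. Between the classes 48% of genes differed (edgeR). Values from fits that take the class into account are given beside several results. Where a class leaves 1 library in a group, the other groups, of both classes, supply the spread for the test. The lone library is assumed to vary like them. Of 8 markers of the A549 label, KRT8 had a median of 3548 CPM, AKR1B10 of 2809 CPM, KRT18 of 2680 CPM and NQO1 of 1690 CPM, while CDH1 (30.6 CPM), KRT19 (29.2 CPM), EPCAM (5.05 CPM) and CLDN7 (1.17 CPM) were far lower. Their summed level was 1906 and 2115 CPM in the Polygalae Radix high-dose libraries, against 5911 to 13372 CPM in all other libraries. There 8 of 8 fell, and 29.5% of all genes tested fell against vehicle in those libraries (edgeR). The summed level of 8 markers of fibroblasts, pericytes, leukocytes, endothelium and alveolar type II cells was 0.203 to 0.464 CPM in those libraries, against 2.23 to 6.26 CPM in all others, most of it CD14 with a median of 2.89 CPM, while COL1A2, DCN and PTPRC had a median of 0 CPM. In bulk libraries, fewer cells of a kind and less RNA per cell cannot be told apart. Nothing in the labels says that replicates were cultured separately, and the spread behind each p-value may therefore be technical.

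Gene positions are those of GENCODE 29 on GRCh38. ANGPTL4 (ENSG00000167772) lies on chromosome 19 at 8363289 to 8374373, PLIN2 (ENSG00000147872) on chromosome 9 at 19108375 to 19149290, PDK4 (ENSG00000004799) on chromosome 7 at 95583499 to 95596491, and CPT1A (ENSG00000110090) on chromosome 11 at 68754620 to 68844410. ACADVL (ENSG00000072778) lies on chromosome 17 at 7217125 to 7225273, ACADM (ENSG00000117054) on chromosome 1 at 75724347 to 75787575, ACAA2 (ENSG00000167315) on chromosome 18 at 49782167 to 49813960, and HADHA (ENSG00000084754) on chromosome 2 at 26190635 to 26244726. Some members overlap other genes, and the sources used here do not state whether counting used strand: ANGPTL4 overlaps an antisense gene, ACADVL overlaps DLG4 and HADHA overlaps HADHB, each on the opposite strand, and ACADM overlaps RABGGTB on its own strand, so the ACADM values are uncertain. RefSeq sequence upstream of the annotated start (GRCh38.p14) is shown for ANGPTL4 and PLIN2, the PPAR targets that the results turn on, and for the stretch that the promoter windows of HADHA and HADHB share, since those genes lie head to head and fell together. Capitals mark ACGTG, the core of hypoxia-inducible factor sites, on either strand.
ANGPTL4, chr19:8363905-8364154, plus strand: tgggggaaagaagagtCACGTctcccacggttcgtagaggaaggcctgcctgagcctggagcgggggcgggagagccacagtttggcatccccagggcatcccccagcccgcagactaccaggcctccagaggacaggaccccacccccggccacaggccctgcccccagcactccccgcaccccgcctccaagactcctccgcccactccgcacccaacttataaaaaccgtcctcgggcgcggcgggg
PLIN2, chr9:19127493-19127742, minus strand: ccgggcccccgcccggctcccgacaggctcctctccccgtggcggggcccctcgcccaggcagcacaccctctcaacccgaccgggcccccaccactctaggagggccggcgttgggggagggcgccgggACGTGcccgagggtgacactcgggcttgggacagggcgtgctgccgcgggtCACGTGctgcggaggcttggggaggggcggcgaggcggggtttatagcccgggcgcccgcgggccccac
HADHA and HADHB, chr2:26244689-26244882, plus strand, reading towards HADHB: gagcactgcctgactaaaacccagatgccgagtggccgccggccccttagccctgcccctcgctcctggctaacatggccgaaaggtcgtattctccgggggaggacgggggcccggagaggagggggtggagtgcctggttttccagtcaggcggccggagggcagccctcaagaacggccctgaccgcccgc
The windows searched ran 250 bases before to 50 bases after each RefSeq start, on both strands. ACGTG was found at 1 place in the ANGPTL4 window, 3 times in the PLIN2 window, where CACGTG counts on both strands, and 1 time in the second of the 2 ACADVL windows, and 21.4% of all 35116 promoters held it. The nuclear receptor core site AGGTCA was in none of the members' windows and in 13.8% of all promoters, and the PPAR-type direct repeat, AGGTCA copied again after a gap of 1 base, was in none of them and in 0.0228% of all promoters. These are matches of letters in a short window and say nothing of binding elsewhere.

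Per kilobase of exon, HADHA had the highest level of the members in vehicle cells at 59.3 CPM per kb, followed by ACADVL at 31.1, CPT1A at 12.8, ACAA2 at 9.43, ANGPTL4 at 9.4, PDK4 at 7.46, ACADM at 5.73 and PLIN2 at 3.31 CPM per kb. Among the receptors, PPARG was at 7.72 CPM per kb in vehicle cells, PPARD at 2.74 and PPARA at 0.386 CPM per kb, and the heterodimer partner RXRA was at 7.21 CPM per kb. PPARGC1A, a coactivator of oxidative metabolism, was near zero at 0.0139 CPM per kb. Among PPAR targets known from fat and muscle, FABP4 was at 0 in each vehicle library and CD36 averaged 0.0647 ± 0.06 CPM in vehicle cells (SD, n = 3).

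**Figure D1:**
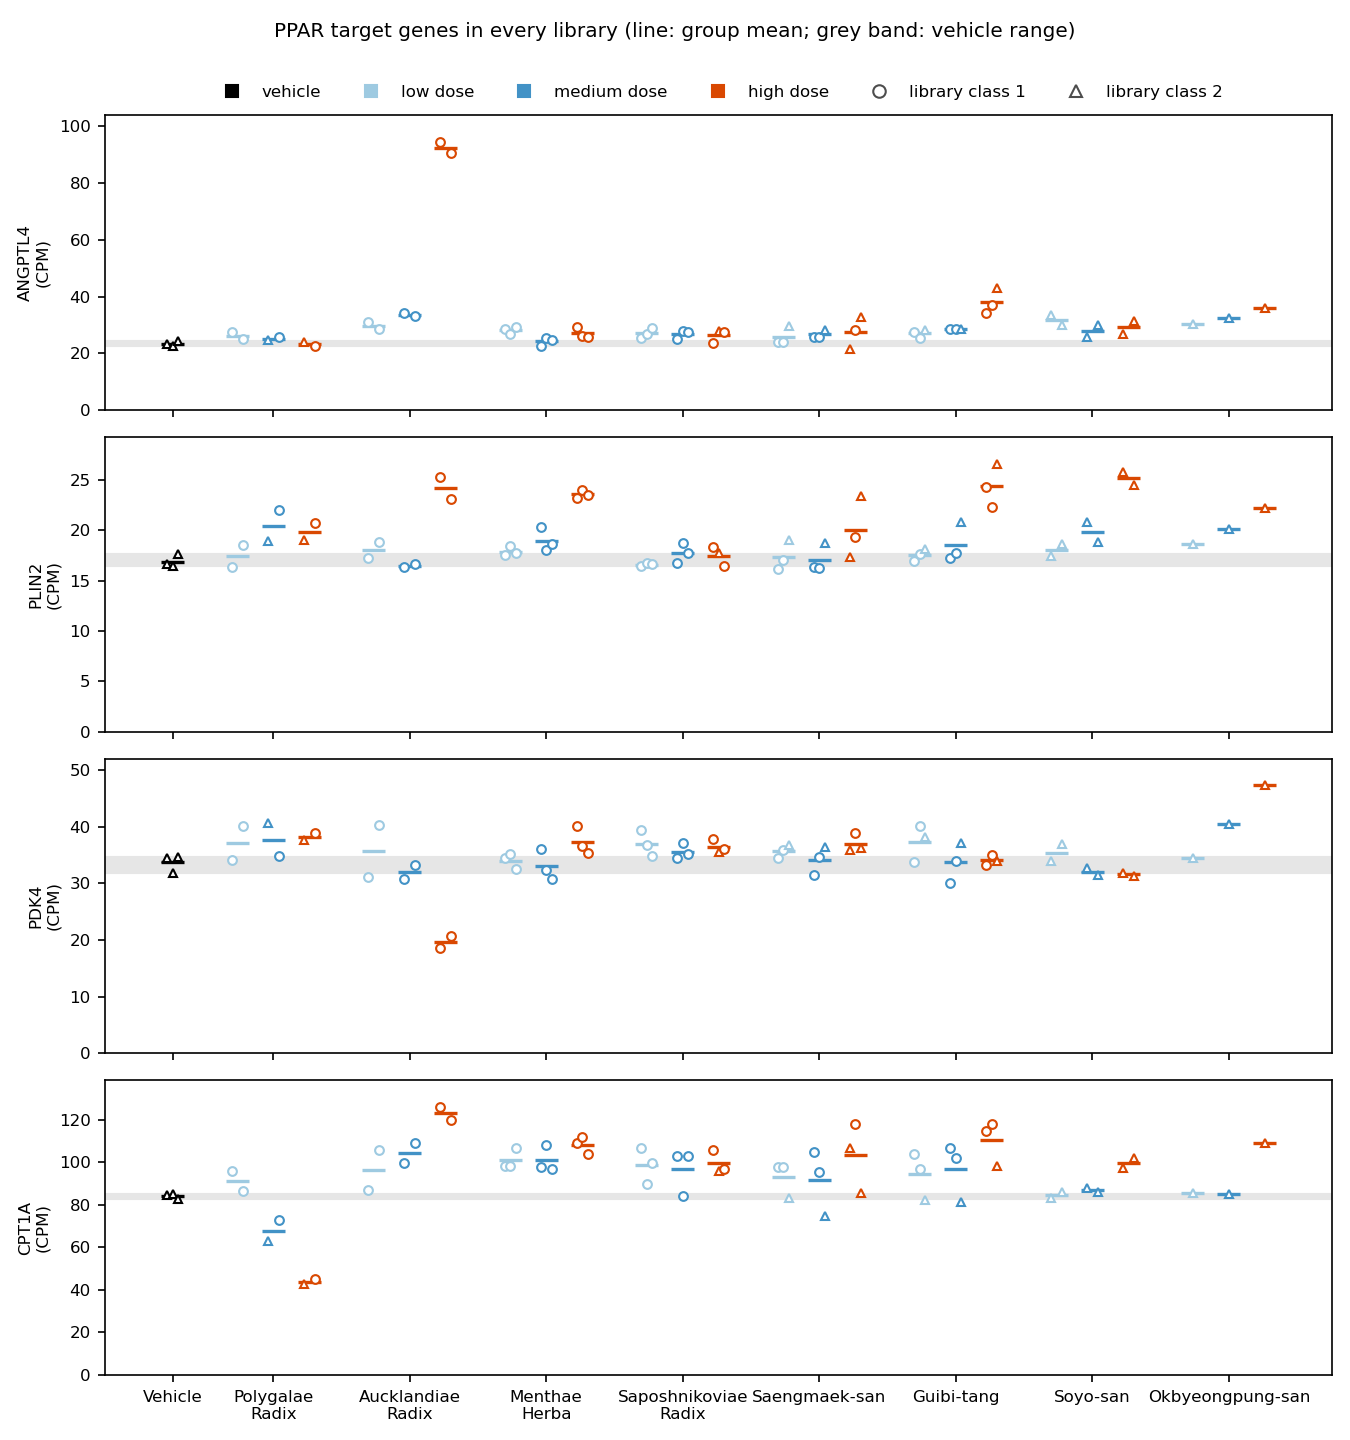
CPM of ANGPTL4, PLIN2, PDK4 and CPT1A in every library, with vehicle at the left and the 3 doses of each extract in rising order (points, libraries; circles and triangles, their class; lines, group means; grey band, the range of the 3 vehicle libraries). ANGPTL4 stood at 94.5 and 90.5 CPM and PDK4 at 18.6 and 20.8 CPM in Aucklandiae Radix high-dose libraries, each away from all other libraries.

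ANGPTL4 in Aucklandiae Radix at its high dose had the highest fold change against vehicle of any member in the 7 replicated extracts. ANGPTL4 was at 94.5 and 90.5 CPM in the high-dose libraries, against 23.2, 22.5 and 24.3 CPM in vehicle libraries. The groups did not overlap, and the next library of the series was at 42.9 CPM. Its log2 fold change was 1.99 ± 0.11 (SE), with an edgeR adjusted p of 6.17e-18 over all genes tested (quasi-likelihood test, Benjamini-Hochberg). Over the doses, ANGPTL4 was at 31.1 and 28.4 CPM at the low dose, 34.2 and 33.1 CPM at the medium dose and 94.5 and 90.5 CPM at the high dose, so most of the difference lay in the last step. The high dose stood above the low dose by 1.64 ± 0.12 on the log2 scale (edgeR adjusted p = 5.61e-14), a comparison that uses no vehicle library and lies within library class 1.

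The other members did not move as 1 block in Aucklandiae Radix. Of the 8 members, 4 rose and 1 fell at the high dose against vehicle, where 35.7% of all genes tested passed the threshold in either direction. PDK4 fell: it was at 18.6 and 20.8 CPM in high-dose libraries, against 34.5, 31.9 and 34.7 CPM in vehicle libraries, a log2 fold change of -0.78 ± 0.10 (edgeR adjusted p = 2.35e-08). The high-dose libraries held the lowest PDK4 values of the series. PLIN2 rose to 25.3 and 23.1 CPM in high-dose libraries, against 16.6, 16.4 and 17.6 CPM in vehicle libraries (log2 fold change 0.52 ± 0.09, edgeR adjusted p = 2.02e-05). CPT1A rose to 126 and 120 CPM, against 84.7, 85.3 and 82.6 CPM in vehicle libraries, a log2 fold change of 0.54 ± 0.12 (edgeR adjusted p = 0.000456), or 0.29 with library class as a covariate (edgeR adjusted p = 0.0134). ACADVL rose to 210 and 220 CPM, against 151, 147 and 156 CPM in vehicle libraries (log2 fold change 0.51 ± 0.08, edgeR adjusted p = 3.11e-06). The enzymes deeper in the pathway did not pass the test: the log2 fold changes were 0.22 for ACADM, 0.11 for ACAA2 and 0.13 for HADHA, with edgeR adjusted p of 0.0568, 0.17 and 0.112. With class as a covariate, HADHA (0.23, edgeR adjusted p = 0.0012) and ACAA2 (0.16, edgeR adjusted p = 0.0419) passed.

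Against its own low dose, Aucklandiae Radix high dose raised 2 members and lowered 1, where 18.4% of all genes tested passed. PDK4 fell by 0.86 ± 0.10 on the log2 scale (edgeR adjusted p = 2.21e-08), with 18.6 and 20.8 CPM at the high dose and 31.1 and 40.4 CPM at the low dose. PLIN2 rose by 0.43 ± 0.10 (edgeR adjusted p = 0.00179), a call that held in 2 of 4 fits that each left out 1 library, with a largest edgeR adjusted p of 0.0519 without low-dose replicate 2. CPT1A (0.35 ± 0.13, edgeR adjusted p = 0.0663) and ACADVL (0.24 ± 0.09, edgeR adjusted p = 0.0542) lay just outside the threshold. Both passed in the fit within class 1, where groups were split by class (edgeR adjusted p = 0.00487 and 0.005). Aucklandiae Radix libraries were all class 1, so that fit compared the same libraries. In it 4879 of all genes passed, against 3394 in the main fit.

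Beside ANGPTL4, genes of neighbouring programmes were counted. Of 10 hypoxia-inducible genes, 4 rose and 3 fell in Aucklandiae Radix high dose against vehicle, where 35.7% of all genes tested passed, the share to set beside each count of this paragraph. NDRG1 rose by 0.60 and BNIP3 by 0.44 on the log2 scale, while CA9 fell by 1.07 and VEGFA by 0.48. Of 7 glucocorticoid-inducible genes tested, 1 rose and 3 fell. Of the 8 markers of the A549 label, 1 rose and 3 fell, and the monocyte marker CD14 rose by 1.21. The part of these programmes and markers in the ANGPTL4 and PDK4 values was not tested. Of 10 genes around pyruvate dehydrogenase, on which PDK4 acts, the phosphatase PDP1 rose by 0.71 while PDP2 fell by 0.41 and the core subunit DLAT fell by 0.24. Of 11 other PPAR target and lipid droplet genes tested, 1 rose and 2 fell, with a list median of -0.18 against 0.02 over all genes: PLIN3, a droplet coat protein, rose by 0.62, UCP3, a mitochondrial carrier of the PPAR programme, fell by 0.95, and MGLL, the monoglyceride lipase, fell by 0.76. Of 10 receptor and cofactor genes, RXRB rose by 0.54 and 4 fell, among them the Mediator subunit MED1 (by 0.60) and the coactivator PPRC1 (by 0.46). RXRB averaged 26.4 CPM at the low and 29 CPM at the high dose, against 19.9 CPM in vehicle, its lowest group mean.

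Guibi-tang was the other extract in which ANGPTL4 rose against both vehicle and the low dose. At the high dose ANGPTL4 was at 34.2, 36.9 and 42.9 CPM, against 23.2, 22.5 and 24.3 CPM in vehicle libraries. All 3 libraries lay above every vehicle library, and the class 2 library was the highest. The log2 fold change was 0.70 ± 0.10 (edgeR adjusted p = 3.2e-06), and 0.48 ± 0.10 against the low dose, where the libraries were at 27.6, 25.5 and 28.3 CPM (edgeR adjusted p = 0.00143). Within class 1, with 2 libraries at each dose, the high dose stood above the low dose by 0.42 (edgeR adjusted p = 0.0258), and in class 2, with 1 library at each dose, the log2 difference was 0.60. Of the 8 members, 4 rose and 0 fell against vehicle, where 9.56% of all genes tested passed, and 2 rose and 0 fell against the low dose, where 2.94% passed. PLIN2 rose in both: it was at 24.3, 22.3 and 26.6 CPM at the high dose, against 16.6, 16.4 and 17.6 CPM in vehicle libraries (log2 fold change 0.53 ± 0.08, edgeR adjusted p = 2.48e-05) and against 16.9, 17.6 and 18.1 CPM at the low dose (0.48 ± 0.08, edgeR adjusted p = 0.00018). CPT1A rose by 0.39 ± 0.11 against vehicle (edgeR adjusted p = 0.017) and ACADVL by 0.39 ± 0.07 (edgeR adjusted p = 0.000298). The CPT1A call was lost with class as a covariate (0.22, edgeR adjusted p = 0.0548) and in 4 of 6 fits that left out 1 library. HADHA lay on the other side, at 234, 228 and 254 CPM in Guibi-tang high-dose libraries, against 255, 267 and 257 CPM in vehicle libraries (log2 fold change -0.12 ± 0.06, edgeR adjusted p = 0.173). Against the low dose its log2 fold change was -0.19 ± 0.06 (edgeR adjusted p = 0.0639), and the edgeR adjusted p was 0.00738 with class as a covariate.

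PLIN2 was the member that moved most widely with dose. It rose in 5 of 7 extracts at the high dose against vehicle and in 4 of 7 against the low dose. Over all genes tested and the 7 extracts, 24% of tests against vehicle and 13.6% of tests against the low dose passed in either direction. Besides Aucklandiae Radix and Guibi-tang, it was at 23.2, 24.0 and 23.5 CPM in Menthae Herba high-dose libraries, against 17.5, 18.4 and 17.7 CPM in low-dose libraries (log2 fold change 0.40 ± 0.08, edgeR adjusted p = 0.000481). In Soyo-san it was at 25.8 and 24.5 CPM at the high dose and 17.4 and 18.6 CPM at the low dose (0.48 ± 0.11, edgeR adjusted p = 0.00992), and this call held in 1 of 4 fits that left out 1 library, with a largest edgeR adjusted p of 0.17. Against vehicle the log2 fold changes were 0.48 in Menthae Herba, 0.58 in Soyo-san and 0.24 in Polygalae Radix, with edgeR adjusted p of 2.18e-05, 1.71e-05 and 0.0292. The Polygalae Radix call was lost in 3 of 5 fits that left out 1 library (largest edgeR adjusted p = 0.248, without high-dose replicate 3) and within class 2, where the high dose has 1 library (0.17, edgeR adjusted p = 0.18). Saposhnikoviae Radix had 18.3, 17.7 and 16.4 CPM at the high dose, against 16.6, 16.4 and 17.6 CPM in vehicle libraries, and the groups overlapped. At the medium dose PLIN2 was at 20.3, 18.0 and 18.6 CPM in Menthae Herba, 17.2, 17.7 and 20.8 CPM in Guibi-tang and 16.3 and 16.6 CPM in Aucklandiae Radix, so in these 3 extracts most of the difference from vehicle lay in the last dose step. In Polygalae Radix it was at 18.9 and 22 CPM at the medium dose, with a log2 fold change over vehicle of 0.28 at the medium and 0.24 at the high dose.

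**Figure D2:**
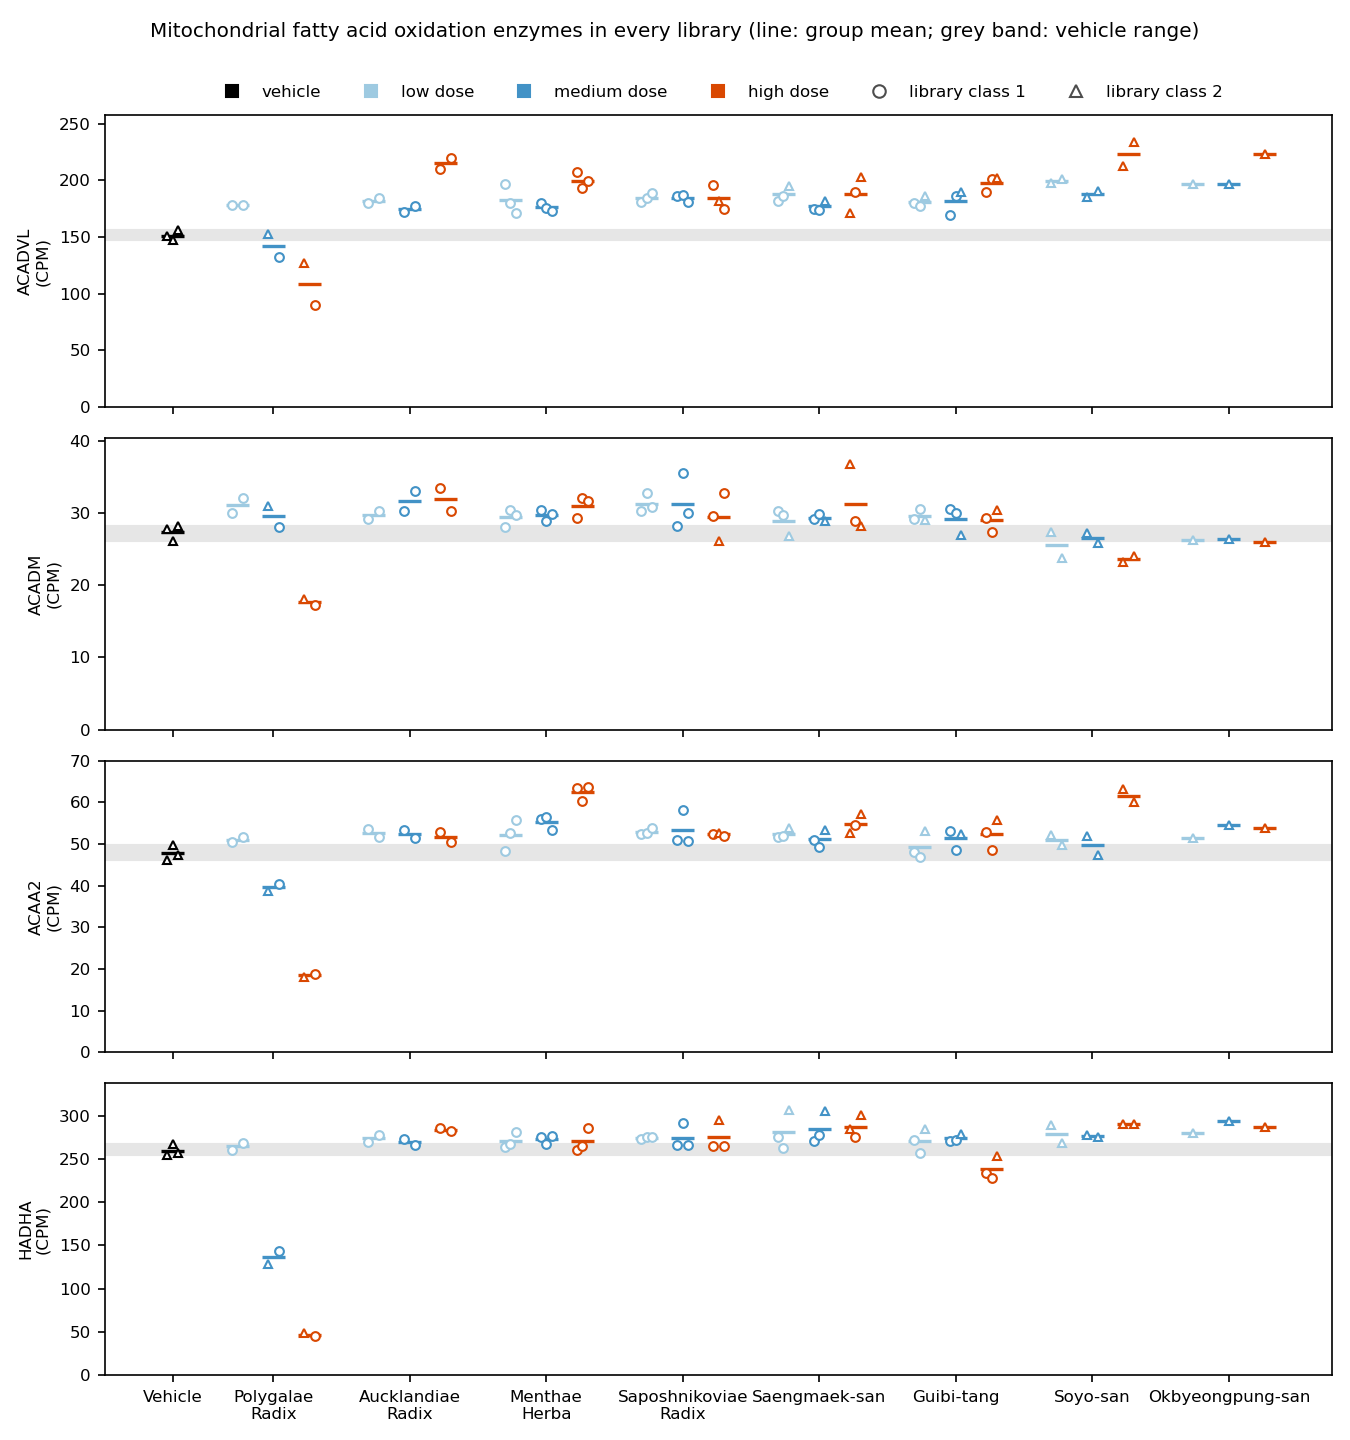
CPM of ACADVL, ACADM, ACAA2 and HADHA in every library, laid out with vehicle at the left and the 3 doses of each extract in rising order (points, libraries; circles and triangles, their class; lines, group means; grey band, the vehicle range). HADHA in Polygalae Radix stood at 260 and 269 CPM at the low, 129 and 143 CPM at the medium and 48.6 and 44.8 CPM at the high dose.

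Polygalae Radix at its high dose lowered the oxidation enzymes, HADHA most of all. Of the 8 members, 1 rose and 5 fell against vehicle, where 59.6% of all genes tested passed the threshold and 29.5% fell, so a call by itself is common in this comparison and the sizes carry the description. HADHA was at 48.6 and 44.8 CPM in high-dose libraries, against 255, 267 and 257 CPM in vehicle libraries. Both lay below every other library of the series, and the same held for CPT1A, ACAA2, ACADM and ACADVL. The share of all genes tested that lay so low is not given here, and this is not read as a trait of the members. The HADHA log2 fold change was -2.48 ± 0.07 (edgeR adjusted p = 1.18e-28), a level 5.57-fold lower than in vehicle. The decline followed the dose, with 260 and 269 CPM at the low, 129 and 143 CPM at the medium and 48.6 and 44.8 CPM at the high dose, and medium against vehicle gave -0.93 ± 0.07 (edgeR adjusted p = 2.22e-14).

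ACAA2 followed the same order of doses in Polygalae Radix, at 46.2, 49.9 and 47.4 CPM in vehicle libraries, 50.5 and 51.7 CPM at the low, 38.8 and 40.5 CPM at the medium and 18.2 and 18.9 CPM at the high dose. High dose against vehicle gave a log2 fold change of -1.37 ± 0.07 (edgeR adjusted p = 1.31e-20) and medium against vehicle -0.27 ± 0.06 (edgeR adjusted p = 0.0021). CPT1A was at 42.6 and 45.0 CPM in high-dose libraries, against 84.7, 85.3 and 82.6 CPM in vehicle libraries (-0.94 ± 0.13, edgeR adjusted p = 3.74e-08). ACADM was at 18.1 and 17.2 CPM in high-dose libraries, against 27.8, 26.1 and 28.2 CPM in vehicle libraries (-0.64 ± 0.10, edgeR adjusted p = 2.69e-07). ACADVL was the least steady, at 127 CPM in the class 2 library and 89.8 CPM in the class 1 library of the high dose, against 151, 147 and 156 CPM in vehicle libraries, all class 2. Its log2 fold change was -0.48 ± 0.08 with both libraries (edgeR adjusted p = 3.34e-06), -0.25 within class 2, where the high dose has 1 library (edgeR adjusted p = 0.00669) and -0.75 without the class 2 library of the high dose. Against the low dose the same 5 genes fell and 0 rose, where 57% of all genes tested passed, with log2 fold changes of -2.50 for HADHA, -1.46 for ACAA2, -1.06 for CPT1A, -0.82 for ACADM and -0.72 for ACADVL, and edgeR adjusted p between 6.6e-28 and 1.51e-08.

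ANGPTL4, PDK4 and PLIN2 did not pass as lower in Polygalae Radix. ANGPTL4 was at 23.9 and 22.7 CPM in high-dose libraries, against 23.2, 22.5 and 24.3 CPM in vehicle libraries, so the groups overlapped. PDK4 was at 37.6 and 38.9 CPM, against 34.5, 31.9 and 34.7 CPM in vehicle libraries (log2 fold change 0.18 ± 0.09, edgeR adjusted p = 0.0829, and 0.21 with an edgeR adjusted p of 0.0449 with class as a covariate), and PLIN2 at 19.0 and 20.7 CPM, against 16.6, 16.4 and 17.6 CPM in vehicle libraries. Over all genes tested, 59.6% passed in this comparison and 29.5% fell. Of 7 glucocorticoid-inducible genes tested, 5 rose and 1 fell, with PER1 higher by 1.18 on the log2 scale. Of 10 hypoxia-inducible genes, 3 rose and 4 fell, with CA9 lower at -2.11. The test of these genes against the enzymes was not made, and CPM values are shares of a library in which many genes changed.

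HADHB, which encodes the partner subunit of HADHA in the trifunctional protein, is the first member of the wider pathway to set beside it. It was at 23.1 and 28.7 CPM in Polygalae Radix high-dose libraries, against 97.4, 94.3 and 97.7 CPM in vehicle libraries, a log2 fold change of -1.89 ± 0.11 (edgeR adjusted p = 1.56e-18). Over the doses HADHB was at 106 and 106 CPM at the low, 49.1 and 71.4 CPM at the medium and 23.1 and 28.7 CPM at the high dose. The 2 genes are transcribed away from each other, and their RefSeq starts leave 306 bases between them, which include the 194 bases printed above. In GENCODE 29 the 2 genes do overlap on opposite strands, with HADHA annotated to 26244726, upstream of its RefSeq start at 26244632. Reads in that overlap could count for the other gene if strand was not used.

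The wider oxidation pathway fell along with the members in Polygalae Radix. Of 23 other mitochondrial oxidation genes tested, 20 fell and 1 rose at the high dose against vehicle, with a list median of -1.03 on the log2 scale against 0.05 over all genes, of which 29.5% fell and 59.6% passed in either direction. ETFB, a subunit of the flavoprotein that takes electrons from the dehydrogenases, was at 18.4 ± 4.1 CPM, against 69.8 ± 1.29 CPM in vehicle (-1.91 ± 0.15, edgeR adjusted p = 3.41e-14). ECHS1, the short-chain hydratase, fell by 1.74 and HSD17B10, a short-chain dehydrogenase, by 1.75 on the log2 scale. The 1 gene that rose was CPT1B, the muscle-type form of CPT1 (0.81), which was named after its values were seen. Of 13 peroxisomal oxidation genes, 12 fell and 1 rose, with a median of -1.15: HSD17B4, the peroxisomal bifunctional enzyme, fell by 2.03, catalase (CAT) by 2.03, the oxidase ACOX3 by 1.64 and the thiolase SCP2 by 1.51. Of 11 droplet and PPAR target genes tested, 6 fell and 2 rose, with a median of -0.90: CIDEC fell by 2.53, PLIN3 by 2.15, MGLL by 1.69 and PNPLA2, the droplet triglyceride lipase, by 1.24. Of 10 genes of the pyruvate dehydrogenase complex and its regulators, 6 fell and 3 rose, with PDHA1 at -1.82 and DLD at -1.41. Receptors and cofactors were mixed, with 3 of 10 that rose and 4 that fell: PPARA fell by 0.73, while PPRC1 rose by 0.81 and RXRB by 0.58. RXRB averaged 25.2 CPM at the low and 29.6 CPM at the high dose, against 19.9 CPM in vehicle. Against the low dose, a comparison without vehicle in which 57% of all genes passed, 21 of the 23 mitochondrial genes fell and 0 rose (median -1.26), and 11 of the 13 peroxisomal genes fell and 1 rose (median -1.21). The markers of the A549 label, NQO1 and AKR1B10 among them, fell in the same libraries, with a median log2 fold change of -2.25. Their part in these values was not tested.

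**Figure D3:**
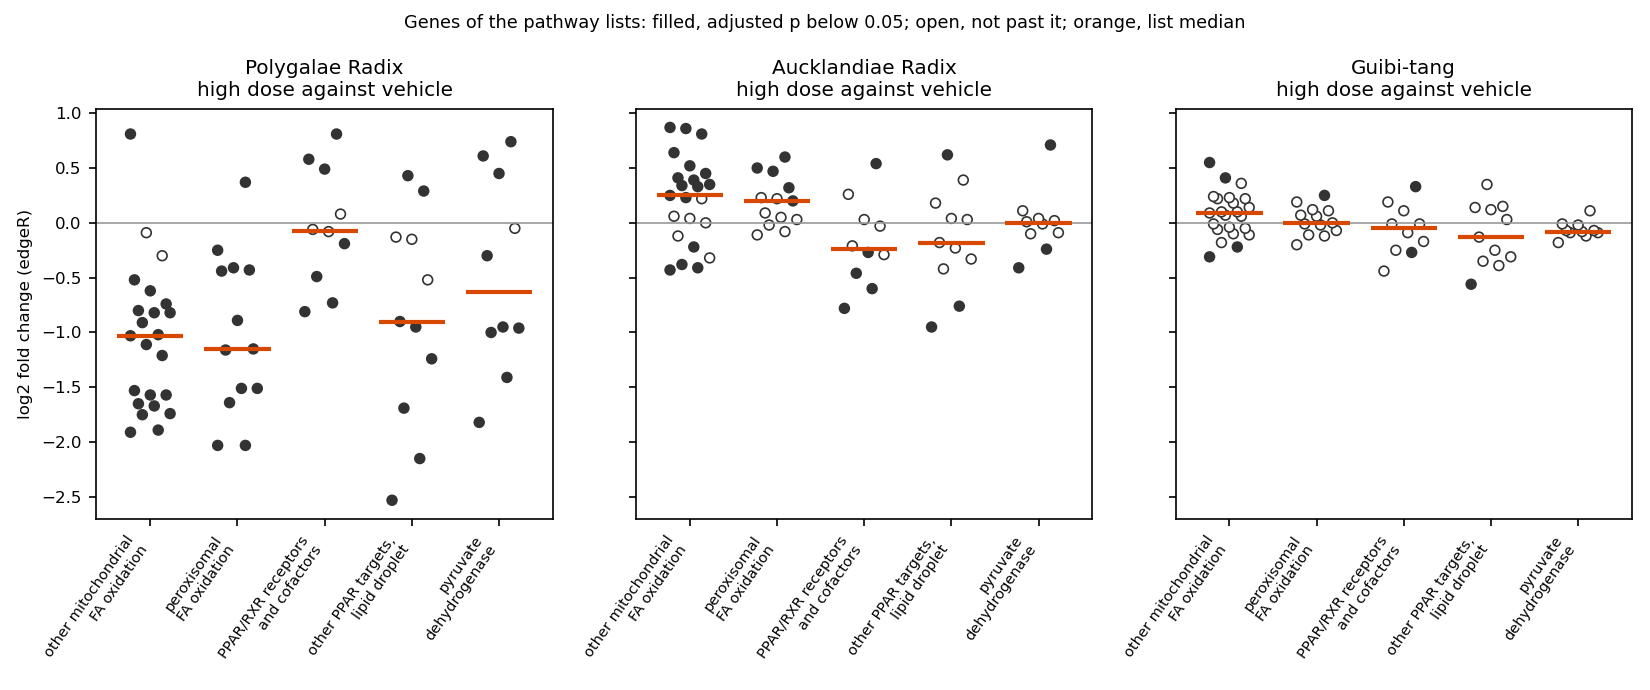
Log2 fold changes of the genes of 5 pathway lists at the high dose against vehicle, in Polygalae Radix, Aucklandiae Radix and Guibi-tang, with a point per gene, filled where its edgeR adjusted p was below 0.05, and an orange line at the list median. In Polygalae Radix the medians of the mitochondrial and peroxisomal oxidation lists were -1.03 and -1.15, and in Aucklandiae Radix 0.25 and 0.20.

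In Aucklandiae Radix the medians of the mitochondrial and peroxisomal lists lay slightly above zero, where 35.7% of all genes tested passed. Of 23 other mitochondrial oxidation genes tested, 13 rose and 4 fell at the high dose against vehicle, with a median of 0.25 against 0.02 over all genes. CPT1B was at 12.4 ± 0.465 CPM, against 6.74 ± 0.569 CPM in vehicle (0.87 ± 0.15, edgeR adjusted p = 7.36e-06), the carnitine carrier SLC25A20 rose by 0.81, the auxiliary reductase DECR1 by 0.86 and the short-chain dehydrogenase ACADS by 0.64. Of 13 peroxisomal genes, 5 rose and 0 fell, led by the carnitine acyltransferase CROT (0.60) and ACAD11 (0.50). Against the low dose, where 18.4% of all genes passed, 4 of the 23 rose and 2 fell, and CPT1B (0.48) and SLC25A20 (0.40) rose there too. In Menthae Herba, 13 of the 23 rose and 2 fell against vehicle, where 29.6% of all genes passed, and 2 rose and 2 fell against its low dose, where 15.5% passed. There the acyl-CoA synthetase ACSL3 fell by 0.62, the carnitine transporter SLC22A5 fell by 0.38, the branched-chain dehydrogenase ACADSB rose by 0.26 and ACAT1 rose by 0.19. In Guibi-tang, 2 rose (CPT1B by 0.55 and SLC25A20 by 0.41) and 2 fell (SLC22A5 by 0.31 and ACADSB by 0.22) against vehicle, where 9.56% of all genes passed. In Soyo-san 8 rose and 3 fell, where 28.6% of all genes passed, in Saengmaek-san 3 rose and 1 fell, where 3.79% passed, and in Saposhnikoviae Radix 2 rose and 0 fell, where 1.04% passed. Of the 8 markers of the A549 label, 0 rose and 3 fell in Guibi-tang, with KRT18 at -0.67 and KRT8 at -0.65. Their part in the values of the members was not tested.

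ACADVL and ACAA2 rose in extracts other than Polygalae Radix. ACADVL rose in 6 of 7 extracts at the high dose against vehicle, by 0.28 in Saposhnikoviae Radix to 0.56 in Soyo-san on the log2 scale. Soyo-san high-dose libraries, class 2 like vehicle, were at 213 and 234 CPM, against 151, 147 and 156 CPM in vehicle libraries (0.56 ± 0.08, edgeR adjusted p = 2.52e-06). The Saposhnikoviae Radix call (edgeR adjusted p = 0.0414) was lost in all 6 fits that left out 1 library, and the Saengmaek-san call (0.31, edgeR adjusted p = 0.0102) in 2 of 6. ACADVL also rose in 5 of 7 extracts at the low dose, by 0.27 to 0.40, and did not pass as higher at the high than at the low dose in any of the 7. With class as a covariate it did so in Aucklandiae Radix (0.24, edgeR adjusted p = 0.0203). The ACADVL vehicle mean, 151 ± 4.37 CPM (SD, n = 3), lay below every treated group mean except Polygalae Radix medium and high dose. The same held for the vehicle means of CPT1A (84.2 CPM) and ACAA2 (47.8 CPM). For ANGPTL4, vehicle had the lowest mean of all groups, with Polygalae Radix high dose next at 23.3 CPM. Since vehicle was a library set of its own, treatment and library set cannot be told apart where these genes are compared with vehicle.

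ACAA2 moved with dose in Menthae Herba and in Soyo-san. In Menthae Herba it was at 63.4, 60.4 and 63.7 CPM at the high dose, against 46.2, 49.9 and 47.4 CPM in vehicle libraries (0.38 ± 0.06, edgeR adjusted p = 9.46e-07) and against 48.4, 52.7 and 55.7 CPM at the low dose (0.26 ± 0.06, edgeR adjusted p = 0.000825). The high-dose libraries lay above all libraries of both other groups. In Soyo-san it was at 63.3 and 60.0 CPM at the high dose, against 46.2, 49.9 and 47.4 CPM in vehicle libraries (0.37 ± 0.06, edgeR adjusted p = 3.45e-05) and against 52.3 and 49.9 CPM at the low dose (0.27 ± 0.07, edgeR adjusted p = 0.0381, lost in all 4 fits that left out 1 library). Menthae Herba raised 4 members and lowered 0 against vehicle, where 29.6% of all genes tested passed, and raised 2 against its low dose, where 15.5% passed. Its CPT1A call (0.36 ± 0.11, edgeR adjusted p = 0.0108) was lost with class as a covariate (0.11, edgeR adjusted p = 0.376). Soyo-san raised 4 members against vehicle, where 28.6% passed, and 2 against its low dose, where 1.24% passed. Its ANGPTL4 libraries were at 26.9 and 31.3 CPM at the high dose, against 23.2, 22.5 and 24.3 CPM in vehicle libraries (0.32 ± 0.11, edgeR adjusted p = 0.0279), with an edgeR adjusted p of 0.34 without high-dose replicate 2, and were at 33.4 and 29.9 CPM at the low dose.

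**Figure D4:**
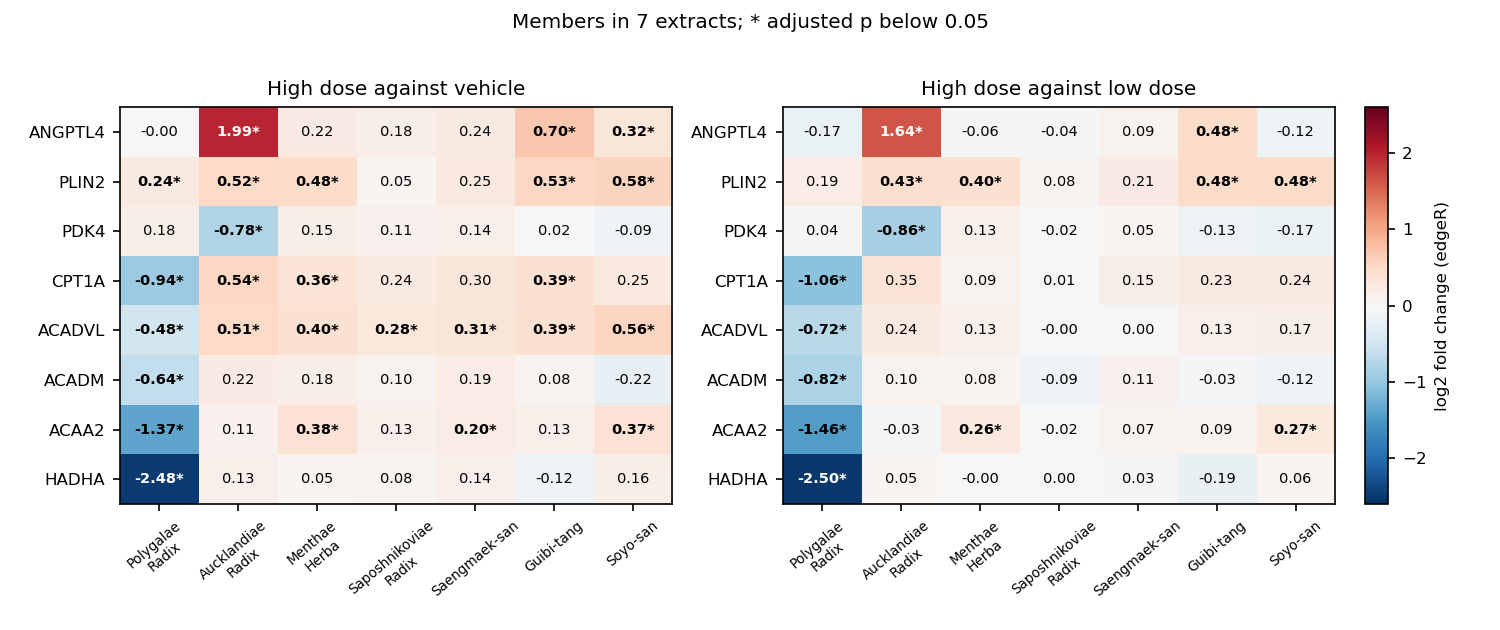
Log2 fold changes of the 8 members in the 7 replicated extracts, for the high dose against vehicle (left) and against the low dose (right), red where higher and blue where lower at the high dose, with an asterisk and bold type for an edgeR adjusted p below 0.05. The Polygalae Radix column runs to -2.50 for HADHA and the Aucklandiae Radix column to 1.99 for ANGPTL4.

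Adjusted tests called few members in Saposhnikoviae Radix and Saengmaek-san. Saposhnikoviae Radix raised 1 member against vehicle, where 1.04% of all genes tested passed, and Saengmaek-san raised 2 (ACADVL and ACAA2), where 3.79% passed. Against the low dose, 0 of 8 members passed in either extract by edgeR's adjusted p, where 0.0707% of genes passed in each. There, at an unadjusted p under 0.05, 0 members passed in Saposhnikoviae Radix and 1 in Saengmaek-san, and DESeq2 called 0 members in each. Against vehicle, an unadjusted edgeR p under 0.05 was reached by 3 members in Saposhnikoviae Radix and 7 in Saengmaek-san. In the same order of extracts, 2727 and 3283 of 18396 genes tested reached it. In Saengmaek-san the high-dose replicates spread widely for ANGPTL4, at 21.4, 28.2 and 32.9 CPM, and for PLIN2, at 17.3, 19.3 and 23.4 CPM.

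At the lower doses few members passed against vehicle. At the medium dose 6 of 56 tests passed, where 5.49% of all gene tests did: HADHA and ACAA2 fell and PLIN2 rose (0.28, edgeR adjusted p = 0.0305) in Polygalae Radix, ANGPTL4 rose in Aucklandiae Radix (0.53, edgeR adjusted p = 0.00368), ACAA2 in Menthae Herba (0.21, edgeR adjusted p = 0.0245) and ACADVL in Saposhnikoviae Radix (0.29, edgeR adjusted p = 0.0133). At the low dose 7 of 56 passed, where 6.04% of all gene tests did: ACADVL in 5 extracts and ANGPTL4 in Soyo-san (0.44, edgeR adjusted p = 0.0113) and Aucklandiae Radix (0.35, edgeR adjusted p = 0.043, lost in all 5 fits that left out 1 library). Genes passing at the medium dose made up 18.3% in Polygalae Radix, 5.59% in Aucklandiae Radix, 5.54% in Menthae Herba, 7.94% in Saposhnikoviae Radix, 0.391% in Saengmaek-san, 0.582% in Guibi-tang and 0.0652% in Soyo-san. At the low dose they made up 6.39% in Polygalae Radix, 7.24% in Aucklandiae Radix, 13.1% in Menthae Herba, 4.1% in Saposhnikoviae Radix, 0.522% in Saengmaek-san, 0.261% in Guibi-tang and 10.7% in Soyo-san. All these comparisons use the same 3 vehicle libraries. With class as a covariate, 18 tests passed at the medium and 18 at the low dose, where 11.8% and 13.6% of all gene tests did, and CPT1A at the medium dose of Polygalae Radix was among them (-0.44, edgeR adjusted p = 0.000234).

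The extracts that share a library set were compared at the high dose, in 3 pairs, and 12 of 24 tests on members passed, where 25.5% of all gene tests did. Polygalae Radix was set against Aucklandiae Radix, 380 against 370 µg/mL, so the doses were close but not equal. Of the 8 members, 7 were lower and 1 was higher in Polygalae Radix, where 58.1% of all genes tested differed. HADHA was at 48.6 and 44.8 CPM in Polygalae Radix, against 286 and 282 CPM in Aucklandiae Radix (log2 difference -2.61 ± 0.07, edgeR adjusted p = 2.52e-28). ANGPTL4 was at 23.9 and 22.7 CPM in Polygalae Radix, against 94.5 and 90.5 CPM in Aucklandiae Radix (-1.99 ± 0.12, edgeR adjusted p = 9.33e-18). PDK4 was the member that was higher, at 37.6 and 38.9 CPM in Polygalae Radix, against 18.6 and 20.8 CPM in Aucklandiae Radix (0.96 ± 0.10, edgeR adjusted p = 1.33e-10). Menthae Herba was set against Saposhnikoviae Radix at 500 µg/mL, where 16.2% of genes differed and PLIN2 (0.43 ± 0.08, edgeR adjusted p = 0.000157) and ACAA2 (0.26 ± 0.06, edgeR adjusted p = 0.000763) were higher in Menthae Herba. Guibi-tang was set against Saengmaek-san at 500 µg/mL, where 2.2% of genes differed. ANGPTL4 was higher in Guibi-tang, at 34.2, 36.9 and 42.9 CPM, against 21.4, 28.2 and 32.9 CPM in Saengmaek-san (0.46 ± 0.10, edgeR adjusted p = 0.0036, and 0.0887 without Saengmaek-san high-dose replicate 1). Within class 1, with 1 Saengmaek-san library, the ANGPTL4 difference was 0.33 (edgeR adjusted p = 0.429). HADHA was lower in Guibi-tang, at 234, 228 and 254 CPM, against 285, 275 and 301 CPM in Saengmaek-san (-0.27 ± 0.06, edgeR adjusted p = 0.00358, and 0.0513 without Guibi-tang high-dose replicate 2). Within class 2, with 1 Guibi-tang library, the HADHA difference was -0.21 (edgeR adjusted p = 0.103).

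Okbyeongpung-san had 1 library per dose, so its values have no replicate check. ANGPTL4 was between 22.5 and 24.3 CPM in vehicle libraries and at 30.2 CPM at the low, 32.5 CPM at the medium and 36.0 CPM at the high dose. PDK4 was between 31.9 and 34.7 CPM in vehicle libraries and at 34.4, 40.5 and 47.3 CPM at the low, medium and high dose, the last the highest PDK4 value of the series. At the high dose 7 of 8 members lay above the vehicle range and 1, ACADM, below it, but 72.7% of all genes tested lay outside that range in this library. At the medium dose 7 members lay above the range and 1 inside it, with 75.2% of all genes outside, and at the low dose 6 lay above and 2 inside, with 74.1% of all genes outside.

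Across the 25 group means of log2 CPM, the members were correlated to different degrees. Pearson's r was 0.96 between ACAA2 and HADHA and 0.87 between CPT1A and HADHA over 25 groups, and 0.73 and 0.56 over the 24 groups without Polygalae Radix high dose. The 24 groups still held Polygalae Radix medium dose, with the next lowest means of CPT1A, ACAA2 and HADHA (67.9, 39.6 and 136 CPM). ACADM and HADHA had an r of 0.69, and -0.14 without Polygalae Radix high dose. ANGPTL4 and PDK4 had an r of -0.68, and ANGPTL4 and PLIN2 one of 0.49. Aucklandiae Radix high dose held the highest ANGPTL4 mean (92.5 CPM, the next 38 CPM) and the lowest PDK4 mean (19.7 CPM, the next 31.6 CPM). The r of these pairs without that group was not computed. Without Polygalae Radix high dose, ANGPTL4 had an r of 0.55 with CPT1A and 0.52 with ACADVL, and PLIN2 one of 0.57 with ACADVL. These are descriptions: the groups share library classes and library sets, and the members share each library's depth. Among 11244 genes, those whose group means lay closest to ANGPTL4 were NFKB2 (r = 0.914), METTL25B (0.902), DNASE1L1 (0.901), HMOX1 (0.893) and NPTXR (0.889), and over the 23 groups without Polygalae Radix high and Aucklandiae Radix high their r was 0.644, 0.721, 0.749, 0.646 and 0.775. Closest to PLIN2 were TMEM54 (0.885), ST6GALNAC4 (0.883), TMEM150A (0.880), SQSTM1 (0.866) and TNFRSF11A (0.827), with 0.867, 0.892, 0.867, 0.876 and 0.802 over the 23 groups.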

How the data were processed

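The table deposited by the authors holds expected counts per gene, which are estimated counts that need not be whole (9.95% of values have decimals). RSEM 1.3.3, STAR 2.7.3a, Trim Galore 0.6.5 and FastQC 0.11.9 are listed in the submitters' processing notes, with the build GRCh38, and per the labels the libraries were directional and paired-end. The expected counts were rounded, and CPM values were computed from them with TMM scaling. The edgeR 4.0.16 quasi-likelihood test (R 4.3.3) was fitted on 57 libraries in 22 groups with 35 residual degrees of freedom, after edgeR's filter on low counts left 18396 genes. The fit gave 31 contrasts, each adjusted by Benjamini-Hochberg over every tested gene, with 0.05 as the threshold. Okbyeongpung-san was not fitted, having 1 library per dose. The 7 comparisons with vehicle at each dose share its 3 libraries. Identical libraries were looked for and 0 found. Groups share replicate numbers, but no comparison met the rule for pairing. Alternatives were DESeq2 1.42.0, its size factors, no filter, library class as a covariate, only the libraries compared, the replicate block, leaving out each library, and, added after seeing the data, fits within a class. The members and gene lists were chosen with earlier results of these data known. From each list at most the 4 genes with the largest change past the threshold are named, and for ANGPTL4 and PLIN2 the 5 genes with the highest correlation among tested genes whose log2 CPM averaged 2 or more. Standard errors are the absolute log2 fold change over the root of the F statistic. Some genes of the lists are not reported here by name.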

Additional observations from a re-analysis of the deposited data

Results flagged for a closer look

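The members below differed at the high dose between extracts of 1 library set by a test of the difference itself (edgeR, Benjamini-Hochberg). No group had enough libraries for a test of single outlying values. Between Polygalae Radix and Aucklandiae Radix, at 380 and 370 µg/mL, the log2 difference was -2.61 for HADHA, -1.99 for ANGPTL4, -1.49 for CPT1A, -1.48 for ACAA2, -0.99 for ACADVL, -0.85 for ACADM, -0.29 for PLIN2 and 0.96 for PDK4. The PLIN2 difference had an edgeR adjusted p of 0.0157, and of 0.143 without Aucklandiae Radix high-dose replicate 2. Between Menthae Herba and Saposhnikoviae Radix it was 0.43 for PLIN2 and 0.26 for ACAA2. Between Guibi-tang and Saengmaek-san it was 0.46 for ANGPTL4 and -0.27 for HADHA.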

How the results depend on the processing

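No value that passed the threshold changed sign under any alternative run. Counts of members passing moved by over 1.5 times as follows, and the cause was not tested. With only the libraries compared, the count was 7 in Menthae Herba, 2 in Saposhnikoviae Radix, 0 in Saengmaek-san and 7 in Soyo-san at the high dose against vehicle. Of 18396 genes, 8048, 783, 4 and 7226 passed there, and 5444, 192, 698 and 5260 in the main fit. It was 15 over the 7 extracts at the medium and 19 at the low dose. Per extract, 81 to 5794 genes passed at the medium dose (main fit 12 to 3375) and 317 to 5560 at the low dose (main fit 48 to 2401). Against the low dose it was 5 in Aucklandiae Radix, 1 in Guibi-tang and 1 in Soyo-san. There 5327, 149 and 147 genes passed, and 3394, 540 and 228 in the main fit. With library class as a covariate the count was 5 in Saengmaek-san, 18 at the medium and 18 at the low dose, and 5 in Aucklandiae Radix against its low dose. Beside these, 2894 genes, 11.8% and 13.6% of gene tests, and 4488 genes passed. The main fit gave 698 genes, 5.49%, 6.04% and 3394 genes. Within class 2 it was 5 in Saengmaek-san and 7 in Soyo-san against vehicle and 1 in Guibi-tang against its low dose, and within class 1 it was 5 in Aucklandiae Radix against its low dose. DESeq2 size factors gave 1 in Saengmaek-san against vehicle, and no filter gave 1 in Soyo-san against its low dose. Genes passing numbered 2875 in Saengmaek-san and 7174 in Soyo-san within class 2, and 4879 in Aucklandiae Radix within class 1. They numbered 751 in Saengmaek-san with DESeq2 size factors and 516 of 37285 in Soyo-san with no filter.

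Leaving out 1 library at a time gave counts against vehicle of 5 to 6 in Polygalae Radix, 5 to 5 in Aucklandiae Radix, 4 to 4 in Menthae Herba, 0 to 0 in Saposhnikoviae Radix, 0 to 4 in Saengmaek-san, 3 to 4 in Guibi-tang and 3 to 4 in Soyo-san, with 4 to 6 at the medium and 2 to 7 at the low dose. Against the low dose it gave 5 to 5, 2 to 4, 2 to 2, 0 to 0, 0 to 0, 2 to 3 and 0 to 1 in the same order of extracts, and 11 to 13 between extracts. Groups with 1 library left borrow the spread of the others. The numbers of all genes passing in the fits that left out 1 library are not given here. No comparison met the rule for pairing by replicate number, with correlations of same-numbered deviations between -0.08 and 0.414. The highest were those of high against low dose in Guibi-tang (0.056 to 0.414) and Saengmaek-san (0.022 to 0.34). In both extracts replicate 3 was class 2 at both of these doses. In the order of extracts used for leaving out libraries, the replicate block gave 6, 5, 4, 1, 2, 4 and 5 members against vehicle. Against the low dose it gave 5, 4, 2, 0, 0, 3 and 2. It gave 6 at the medium dose, 8 at the low dose and 13 between extracts. Of 18396 genes, 11101, 6661, 5557, 208, 779, 1855 and 5745 passed against vehicle in that fit. Against the low dose 10547, 3479, 2939, 13, 16, 577 and 254 passed. Per extract, 39 to 3540 genes passed at the medium and 59 to 2662 at the low dose. Between extracts 10763, 3053 and 424 passed. Polygalae Radix, Aucklandiae Radix and Soyo-san have 2 libraries per dose, and vehicle is a library set of its own, all class 2.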
